A study of Mus musculus with 7 samples.

Results

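The astrocyte genes followed here are 36 named protein-coding genes, taken by gene symbol from a table of 55416 genes measured by RNA sequencing in the prefrontal cortex (PFC) of female mice. All 36 were listed in the table, and all 36 were among the 17254 genes that passed a filter on low counts. The members are given by name, and the list was drawn up with earlier results of these data known. They comprise 5 genes of transmitter uptake, 2 genes of reactive astrocytes, 3 metallothioneins, 8 genes of membrane channels, transporters and junctions, 6 metabolic enzymes, 3 receptors and surface proteins, 6 genes of secreted and calcium-binding proteins, and 3 transcription regulators. The mice were female wild-type C57BL/6 animals that received adeno-associated virus (rAAV) in the PFC of both hemispheres. The virus of every group carried EGFP behind the human synapsin I promoter, which drives expression in neurons and not in astrocytes. The Ctr group of 3 libraries received this virus without an insert, the Ref group of 2 libraries received it with the human long noncoding RNA PAXIP1-AS1 in its C allele, and the Alt group of 2 libraries received it with PAXIP1-AS1 in its G allele. The age of the mice at tissue collection and whether animals were pooled are not given in the sources used here. Because nothing states that the libraries of a group came from separate animals, the p-values measure the spread between these libraries, which may be technical.

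Astrocytes are the glial cells that surround synapses and blood vessels. They clear glutamate and GABA from the synaptic space, convert glutamate to glutamine for return to neurons, buffer potassium and water, and supply lipid and lactate. After injury they become reactive and enlarge their filaments, and they are a main site of metallothioneins, small cysteine-rich proteins that bind zinc and copper. In tissue RNA, fewer astrocytes and less RNA per astrocyte cannot be told apart.

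The 7 libraries held 16655697 to 20750857 counts. The counts of an astrocyte gene ran from 9 to 146495 per library, and 33 of the 36 had at least 100 counts in every library, the exceptions being Mt2, Agt and Id3. The 2 Alt libraries differed more from each other than any other replicate pair, at 59.65 times the variance of counting noise (chi-square divided by its degrees of freedom) against 18.97 to 25.58 times, and values without Alt replicate 1 are given below. Levels are CPM (read counts scaled to a common library size by trimmed means, TMM), differences are log2 fold changes from edgeR's quasi-likelihood fit with their standard errors (SE), and adjusted p-values are Benjamini-Hochberg values over all genes tested.

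The defining astrocyte markers were present in every group. In length-scaled units (TPM, mean ± SD of the 3 Ctr libraries), the highest levels were those of Glul at 1274.5 ± 49.9, Slc1a2 at 1113.1 ± 192, Apoe at 801 ± 139, Clu at 746 ± 46.1 and Aldoc at 514 ± 46.7. The levels of Glul and Slc1a2 differed by less than the SD of Slc1a2, and those of Apoe and Clu by less than the SD of Apoe. Gfap stood at 129 ± 35.6 TPM, Aqp4 at 105 ± 21.6 and Aldh1l1 at 33.7 ± 1.65. The lowest level was that of Plcd4 at 4.72 ± 0.389 TPM, and that of Agt, 5.65 ± 2.49 TPM, differed from it by less than the SD of Agt.

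Across the 3 groups the astrocyte genes were mostly higher in Ref than in Ctr, mostly lower in Alt than in Ref, and mixed between Alt and Ctr. These comparisons share libraries, so a high Ref level enters the first and the second of them alike. In no comparison did an astrocyte gene pass an adjusted p of 0.05 in edgeR with the low-count filter, where 0% of all genes passed in Ref versus Ctr and in Alt versus Ctr and 0.0058% in Alt versus Ref. The counts that follow are therefore of genes with an unadjusted p under 0.05, read against the share of all genes that met the same line.

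In Ref versus Ctr, 7 of the 36 were higher and 0 lower at an unadjusted p under 0.05, where 3.14% of all genes met this line, 2.19% higher and 0.945% lower. The members' share was thus 19.4%. The 7 were Glul, Gja1, Aldh1l1, Aldoc, Cbs, Etnppl and Htra1. Of these, 4 are in the group of metabolic enzymes, which leaves out the enzyme gene Glul. The fitted difference was positive for 33 of the 36, from -0.22 to 1.13 on the log2 scale, with a median of 0.30 against 0.0055 over all genes tested. Both Ref libraries lay above all 3 Ctr libraries for 22 members, or 61.1%, against 12.4% of all genes, and below them for 1 member, Sox9, against 10.5% of all genes.

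In Alt versus Ref, 16 of the 36 were lower and 0 higher at an unadjusted p under 0.05, where 15.5% of all genes met this line, 8.83% lower and 6.71% higher. The members' share was 44.4%. The 16 were Glul, the metallothioneins Mt1, Mt2 and Mt3, the membrane genes Mlc1 and Cldn10, the enzyme genes Aldoc and Etnppl, the surface genes Fgfr3, Ntsr2 and F3, and Apoe, Clu, Mfge8, Htra1 and S100b. The median difference was -0.41 against -0.037 over all genes, and 32 of the 36 were negative. Both Alt libraries lay below both Ref libraries for 25 members against 26.1% of all genes, and above them for 1 member, Aqp4, against 21.6% of all genes.

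In Alt versus Ctr, 2 members were higher and 7 lower at an unadjusted p under 0.05, where 19.8% of all genes met this line, 9.45% higher and 10.3% lower. The members' shares were 5.56% higher and 19.4% lower, and their median of -0.066 was close to the median of -0.026 over all genes. Slc1a2 and Slc4a4 were the 2 higher genes, and Mt1, Mt3, Cldn10, Aldoc, Apoe, Clu and S100b were the 7 lower ones. The libraries of the 2 groups did not overlap for 3 higher members (Slc1a2, Slc4a4 and Aldh1l1), against 16.8% of all genes, and for 8 lower members (these 7 and Mt2), against 18.1% of all genes.

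By library, the median of the members' log2 differences from the Ctr mean was 0.04, 0.06 and -0.07 in the 3 Ctr libraries and 0.30 and 0.25 in the 2 Ref libraries. Alt replicate 1 had a median of -0.29, and Alt replicate 2 one of 0.08. The Ref libraries thus lay together above Ctr. Alt replicate 1 lay below all Ctr libraries, and Alt replicate 2 lay close to the highest of them. The SD of this median between replicates, pooled over groups, was 0.14. Summed CPM gave another order, 10597 to 12208 in Ctr, 13994 and 15241 in Ref and 15284 and 13352 in Alt, because Slc1a2 alone supplied 9528 CPM in Alt replicate 1 and 5964 in Alt replicate 2.

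**Figure D1:**
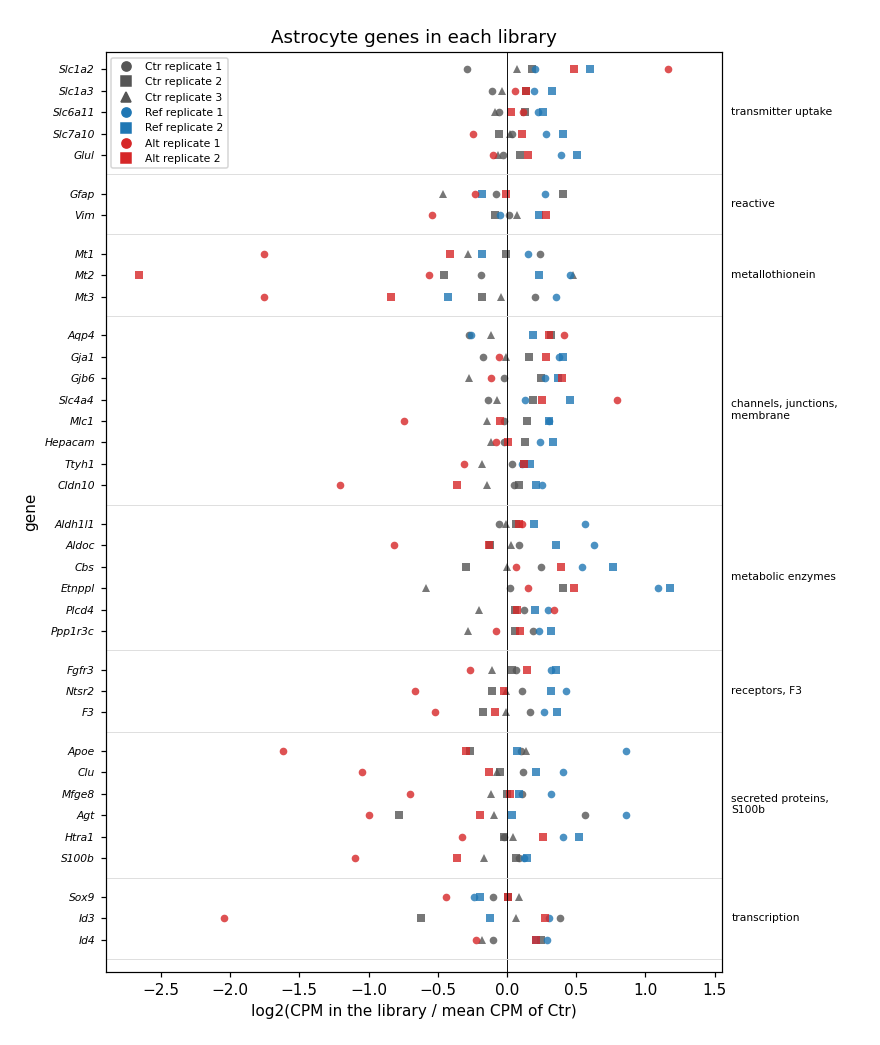
Each point is 1 of the 36 astrocyte genes in 1 of the 7 libraries, on the log2 ratio of its CPM to the Ctr mean (x axis), with genes on the y axis grouped by role and symbols giving group and replicate. Ref points lie to the right of the Ctr points for 22 genes, and the lowest points of most secreted and metallothionein genes are those of Alt replicate 1, except for Mt2, whose lowest point is Alt replicate 2.

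**Figure D2:**
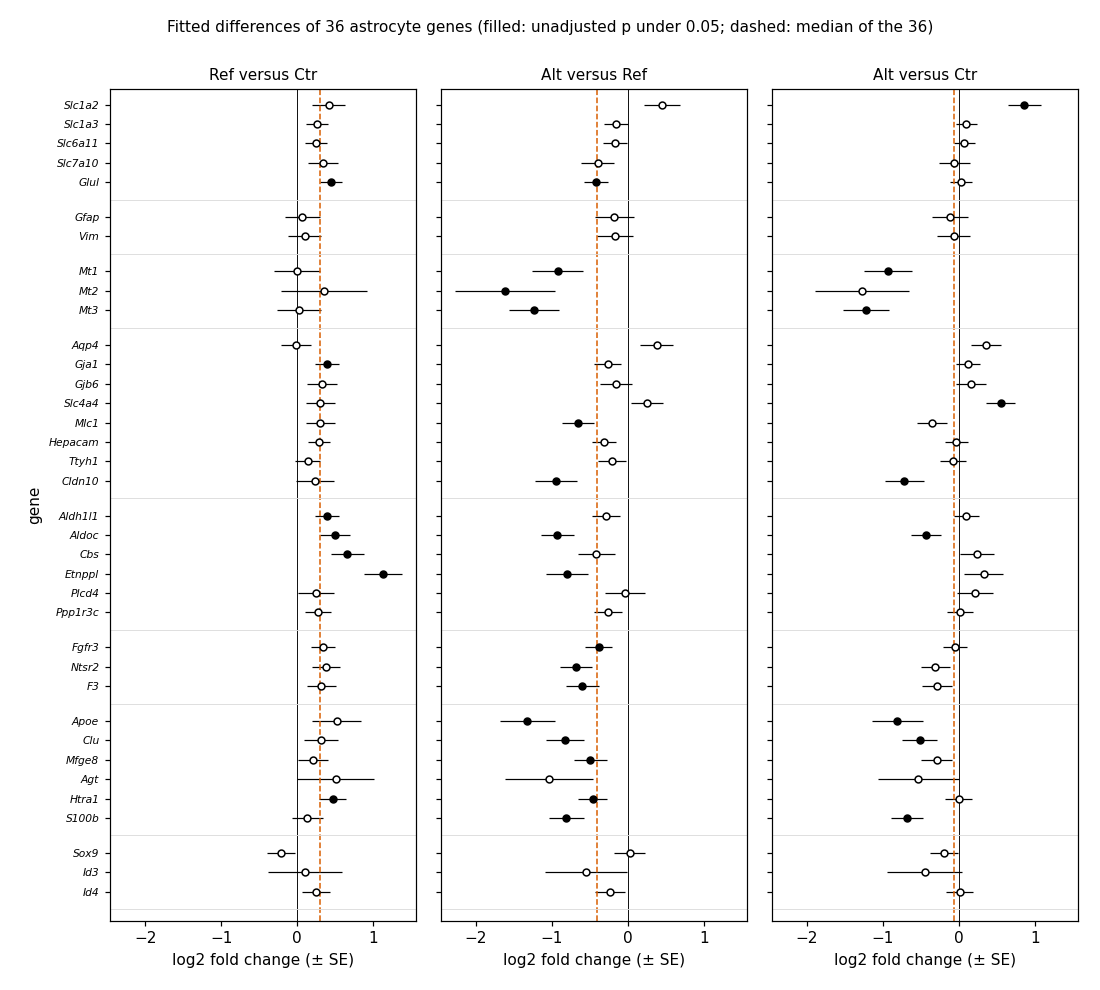
Log2 fold changes (x axis, with bars of 1 SE) of the 36 astrocyte genes (y axis) are drawn for the 3 comparisons in separate panels, with filled points for an unadjusted p under 0.05 and a dashed line at the members' median. The median lies at 0.30 in Ref versus Ctr, -0.41 in Alt versus Ref and -0.066 in Alt versus Ctr.

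Among the transmitter uptake genes, Slc1a2 was higher in Alt than in Ctr and Glul was higher in Ref than in the other groups. Slc1a2, on chromosome 2, encodes GLT-1, the main glutamate transporter of forebrain astrocytes. Its level was 3484, 4827 and 4476 CPM in Ctr, 4894 and 6469 CPM in Ref, and 9528 and 5964 CPM in Alt. Both Alt libraries and both Ref libraries exceeded every Ctr library, and Alt and Ref overlapped. The log2 fold change of Slc1a2 was 0.86 (SE 0.21, edgeR adjusted p = 0.12) in Alt versus Ctr, 0.41 (SE 0.21, adjusted p = 1) in Ref versus Ctr and 0.45 (SE 0.24, adjusted p = 0.385) in Alt versus Ref. Slc1a2 is also the longest member at 13133 bases, and its Alt versus Ctr difference fell to 0.47 after a correction for gene length and to 0.49 without Alt replicate 1. With both together it was 0.29 (unadjusted p = 0.0539).

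Glul encodes glutamine synthetase, which turns glutamate taken up by astrocytes into glutamine. Its level was 1382, 1500 and 1343 CPM in Ctr, 1841 and 1996 CPM in Ref, and 1313 and 1561 CPM in Alt. Both Ref libraries lay above the other 5, and Alt overlapped Ctr. Its difference was 0.45 (SE 0.14, edgeR adjusted p = 1) in Ref versus Ctr and -0.42 (SE 0.16, edgeR adjusted p = 0.259) in Alt versus Ref, the latter -0.29 without Alt replicate 1 (unadjusted p = 0.0855). Slc1a3, which encodes the second astrocytic glutamate transporter GLAST, stood at 796, 943 and 838 CPM in Ctr, 984 and 1074 CPM in Ref, and 894 and 946 CPM in Alt. Its difference in Alt versus Ctr was 0.10 with a 95% interval of -0.21 to 0.41, and whether it differed from that of Slc1a2 was not tested. Slc6a11, the GABA transporter GAT-3, and Slc7a10, a transporter of serine and glycine, gave differences of 0.24 and 0.34 in Ref versus Ctr, with both Ref libraries above all 3 Ctr libraries and neither at an unadjusted p under 0.05.

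The genes of reactive astrocytes did not separate the groups. Gfap, which encodes the intermediate filament that marks reactive astrocytes, stood at 151, 212 and 116 CPM in Ctr, 193 and 141 CPM in Ref, and 136 and 159 CPM in Alt. All 4 Ref and Alt libraries lay within the range of the 3 Ctr libraries. The 95% interval of its difference was -0.44 to 0.57 in Ref versus Ctr and -0.63 to 0.39 in Alt versus Ctr, so changes inside these bounds could not be seen with this number of libraries. Vim, which encodes the filament vimentin, had intervals of -0.37 to 0.57 in Ref versus Ctr and -0.54 to 0.40 in Alt versus Ctr, and its lowest and highest levels were those of the 2 Alt libraries, 53.9 and 95.5 CPM.

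At an unadjusted p under 0.05, all 3 metallothioneins were lower in Alt than in Ref, against 8.83% of all genes, and Mt1 and Mt3 were lower in Alt than in Ctr, against 10.3% of all genes. None met this line in Ref versus Ctr, where the groups overlapped for each of them. Mt1 and Mt2 encode the metallothioneins that metals and glucocorticoids induce in many tissues, and Mt3 encodes the brain form. All 3 genes lie next to each other on chromosome 8, and reads that fit more than one of these similar genes could have been assigned between them in the authors' counting. Mt1 stood at 105, 88.5 and 73.1 CPM in Ctr, 98.6 and 78.5 CPM in Ref, and 26.3 and 66.6 CPM in Alt. Its difference was -0.93 in Alt versus Ctr (SE 0.31, edgeR adjusted p = 0.151) and -0.93 in Alt versus Ref (SE 0.34, edgeR adjusted p = 0.247). Mt3 stood at 34.5, 26.4 and 29.1 CPM in Ctr, 38.3 and 22.4 CPM in Ref, and 8.91 and 16.8 CPM in Alt. For both genes each Alt library lay below the other 5, although Alt replicate 2 came close to them for Mt1. The difference of Mt3 was -1.22 in Alt versus Ctr (SE 0.31, edgeR adjusted p = 0.12) and -1.24 in Alt versus Ref (SE 0.33, edgeR adjusted p = 0.229). Without Alt replicate 1, the Alt versus Ctr differences were -0.84 for Mt3 (unadjusted p = 0.0135) and -0.41 for Mt1 (unadjusted p = 0.0818), and the Alt versus Ref difference of Mt1 was -0.40 (unadjusted p = 0.107).

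Mt2, which held the lowest count of a member in a library, stood at 2.78, 2.31 and 4.41 CPM in Ctr, 4.35 and 3.72 CPM in Ref, and 2.15 and 0.502 CPM in Alt. The 2 Alt values rest on 33 and 9 counts and the others on 47 to 95 counts. Both Alt libraries were the lowest, but here replicate 2 and not replicate 1 was the lower of them. The difference was -1.62 in Alt versus Ref (SE 0.66, edgeR adjusted p = 0.286) and -1.27 in Alt versus Ctr (SE 0.62, edgeR adjusted p = 0.279). In Ref versus Ctr the differences of Mt1, Mt2 and Mt3 were -0.0040, 0.35 and 0.016. After the length correction the Alt versus Ref difference was -0.70 for Mt3 (unadjusted p = 0.0141), -0.44 for Mt1 (unadjusted p = 0.0973) and -1.01 for Mt2 (unadjusted p = 0.158), while the median of all genes in that comparison moved from -0.037 to 0.077. The annotated lengths of Mt1, Mt2 and Mt3, 1246, 588 and 1066 bases, were the shortest of the 36. In Alt versus Ref the median of all genes in their length classes was -0.35 for Mt1 and Mt3 and -0.21 for Mt2, and Mt1, Mt3 and Mt2 differed from it by -0.57, -0.88 and -1.41 on the log2 scale, with Mt3 and Mt2 under the lower quartile of the class. All 3 lay under the lower quartile of their class in Alt versus Ctr.

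The 250 bases upstream of the 3 metallothionein starts are shown because metal induction of this family acts through metal response elements near the start site, bound by the zinc sensor MTF1. They are from RefSeq in build GRCm38.p6, plus strand, written 5′ to 3′ at chr8:94178839-94179088 for Mt1, chr8:94172368-94172617 for Mt2 and chr8:94152357-94152606 for Mt3. Capitals mark matches to TGCACNC or TGCGCNC on either strand.
Mt1: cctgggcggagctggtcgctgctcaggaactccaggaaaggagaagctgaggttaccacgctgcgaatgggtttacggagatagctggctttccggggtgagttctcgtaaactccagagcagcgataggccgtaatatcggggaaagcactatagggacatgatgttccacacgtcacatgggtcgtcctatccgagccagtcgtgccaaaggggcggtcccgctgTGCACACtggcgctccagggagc
Mt2: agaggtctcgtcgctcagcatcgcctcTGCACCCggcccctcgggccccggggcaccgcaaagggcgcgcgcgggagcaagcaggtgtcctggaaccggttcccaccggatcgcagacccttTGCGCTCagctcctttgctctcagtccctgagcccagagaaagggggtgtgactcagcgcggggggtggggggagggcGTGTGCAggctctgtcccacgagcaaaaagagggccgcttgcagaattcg
Mt3: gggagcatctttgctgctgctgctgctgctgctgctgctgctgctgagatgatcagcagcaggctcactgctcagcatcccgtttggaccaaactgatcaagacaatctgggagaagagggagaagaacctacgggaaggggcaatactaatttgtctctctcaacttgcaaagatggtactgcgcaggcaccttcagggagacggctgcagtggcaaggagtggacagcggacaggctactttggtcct
The Mt1 stretch holds 1 match, 23 bases before the annotated start, the Mt2 stretch holds 3 matches and the Mt3 stretch holds 0. In a window that also takes in the first bases past that start, 300 bases in all, the numbers were 3, 4 and 1. The numbers thus changed with the window, and which start the tissue uses was not tested. Over all 27025 genes with a window, 23.8% had a match within 250 bases upstream and 28.2% within the 300 bases. Of the 33 astrocyte genes with a window, 8 had one upstream, or 24.2%, and 12 within the 300 bases, or 36.4%. Whether these matches bear on the levels of the 3 genes in Alt was not tested. A match is a description of letters and no measure of MTF1 binding.

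**Figure D3:**
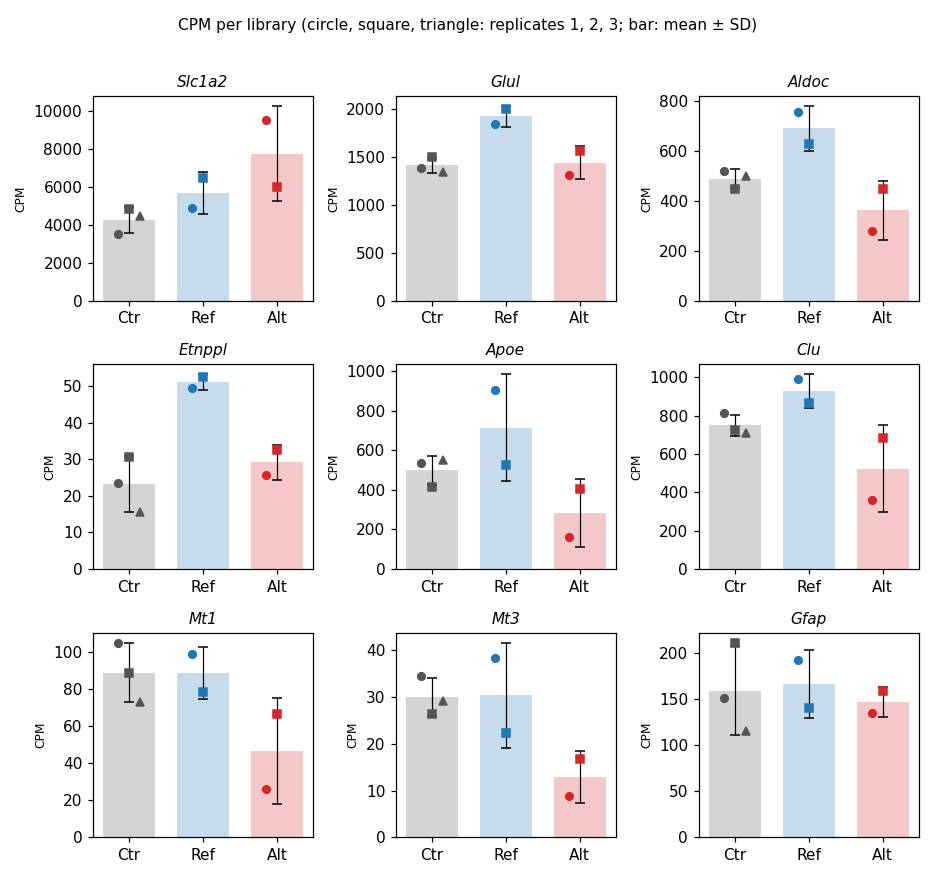
CPM in each library (y axis, starting at 0) for 9 astrocyte genes by group (x axis), with bars at the group mean, error bars of 1 SD over 3 Ctr, 2 Ref and 2 Alt libraries, and symbols for replicates 1, 2 and 3. Glul and Etnppl are highest in both Ref libraries, Mt1 and Mt3 are lowest in both Alt libraries, and the groups overlap for Gfap.

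The genes of membrane channels, transporters and junctions went in different directions in Alt. Slc4a4, the sodium bicarbonate cotransporter of astrocytes, stood at 208, 260.0 and 217 CPM in Ctr, 250.4 and 313 CPM in Ref, and 395 and 273 CPM in Alt. Its difference in Alt versus Ctr was 0.55 (SE 0.19, edgeR adjusted p = 0.156), and it fell to 0.22 after the length correction (unadjusted p = 0.14) and to 0.26 without Alt replicate 1 (unadjusted p = 0.176). Cldn10, a claudin of tight junctions, had 19.7, 20.2 and 17.2 CPM in Ctr, 22.7 and 22.0 CPM in Ref, and 8.26 and 14.8 CPM in Alt, so that both Alt libraries were the lowest. The difference of Cldn10 was -0.72 (SE 0.26, edgeR adjusted p = 0.168) in Alt versus Ctr and -0.95 (SE 0.28, edgeR adjusted p = 0.236) in Alt versus Ref, and without Alt replicate 1 it was -0.36 (unadjusted p = 0.168) in Alt versus Ctr. Mlc1, a membrane protein of perivascular endfeet, had 154, 173 and 141 CPM in Ctr, 193 and 192 CPM in Ref, and 93.1 and 151 CPM in Alt, with a difference of -0.66 in Alt versus Ref (SE 0.22, edgeR adjusted p = 0.236) that was -0.34 without Alt replicate 1 (unadjusted p = 0.0868).

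Gja1 encodes connexin 43, the main gap junction protein of astrocytes. It stood at 196, 247 and 220.2 CPM in Ctr, 286 and 292 CPM in Ref, and 213 and 268 CPM in Alt, with a difference of 0.39 in Ref versus Ctr (SE 0.16, edgeR adjusted p = 1). Aqp4, the water channel of the endfeet, had 158, 238 and 177 CPM in Ctr, 159.7 and 218 CPM in Ref, and 254 and 236 CPM in Alt. Both Alt libraries of Aqp4 lay above both Ref libraries, against the direction of most members, and its difference of 0.38 in Alt versus Ref had a 95% interval of -0.10 to 0.85. The other 3 genes, Gjb6 (connexin 30), Hepacam (an adhesion protein that binds Mlc1) and Ttyh1 (a chloride channel family member), gave differences of 0.14 to 0.32 in Ref versus Ctr and -0.32 to -0.16 in Alt versus Ref, none at an unadjusted p under 0.05.

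Of the 6 metabolic enzymes, 4 were higher in Ref than in Ctr at an unadjusted p under 0.05, against 2.19% of all genes, and 2 were lower in Alt than in Ref, against 8.83% of all genes. All 6 had both Ref libraries above all 3 Ctr libraries, as did 12.4% of all genes. Etnppl, which breaks down phosphoethanolamine, had 23.6, 30.8 and 15.5 CPM in Ctr, 49.6 and 52.6 CPM in Ref, and 25.8 and 32.6 CPM in Alt. Its difference of 1.13 in Ref versus Ctr (SE 0.25, 95% interval 0.59 to 1.68, edgeR adjusted p = 1) had the smallest unadjusted p of the 36 in that comparison, 0.00071. The Alt versus Ref difference of Etnppl was -0.81 (SE 0.28, edgeR adjusted p = 0.243), or -0.64 without Alt replicate 1 (unadjusted p = 0.0554), and Alt overlapped Ctr. Aldoc, the brain form of the glycolytic enzyme aldolase, had 520.5, 449 and 499 CPM in Ctr, 755 and 627 CPM in Ref, and 279 and 447 CPM in Alt. The groups of Aldoc did not overlap in any of the 3 comparisons, with differences of 0.50 in Ref versus Ctr (SE 0.19, edgeR adjusted p = 1), -0.93 in Alt versus Ref (SE 0.22, edgeR adjusted p = 0.229) and -0.43 in Alt versus Ctr (SE 0.20, edgeR adjusted p = 0.251). In the last of these Alt replicate 2 lay just below the lowest Ctr library, at 447 against 449 CPM, and without Alt replicate 1 the difference was -0.13 (unadjusted p = 0.457).

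Cbs, which makes cystathionine in the transsulfuration of homocysteine, had 21.5, 14.8 and 18.2 CPM in Ctr, 26.4 and 30.9 CPM in Ref, and 19.0 and 23.8 CPM in Alt. Its difference in Ref versus Ctr was 0.66 (SE 0.22, edgeR adjusted p = 1). Aldh1l1, a folate enzyme used as a pan-astrocyte marker, had 42.7, 46.4 and 44.0 CPM in Ctr, 65.5 and 50.9 CPM in Ref, and 47.7 and 47.2 CPM in Alt. Its difference in Ref versus Ctr was 0.39 (SE 0.16, edgeR adjusted p = 1), and both Alt libraries also lay just above the Ctr libraries. Plcd4, a phospholipase C, and Ppp1r3c, a subunit that directs phosphatase 1 to glycogen, gave differences of 0.25 and 0.28 in Ref versus Ctr, neither at an unadjusted p under 0.05.

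All 3 receptors and surface proteins were lower in Alt than in Ref at an unadjusted p under 0.05, against 8.83% of all genes. Ntsr2, a neurotensin receptor of astrocytes, had 98.6, 84.8 and 91.1 CPM in Ctr, 123 and 114 CPM in Ref, and 57.6 and 89.9 CPM in Alt, with a difference of -0.68 in Alt versus Ref (SE 0.21, edgeR adjusted p = 0.236). F3, tissue factor, which starts blood clotting, had 37.6, 29.7 and 33.4 CPM in Ctr, 40.3 and 43.1 CPM in Ref, and 23.4 and 31.6 CPM in Alt, with a difference of -0.60 (SE 0.21, edgeR adjusted p = 0.244). Fgfr3, a receptor for fibroblast growth factors, had 109, 107 and 96.7 CPM in Ctr, 130.0 and 133 CPM in Ref, and 86.4 and 115 CPM in Alt, with a difference of -0.39 (SE 0.18, edgeR adjusted p = 0.32). For each of the 3 genes the Ref libraries were the highest, and the Alt and Ctr libraries overlapped. Without Alt replicate 1, 0 of the 3 met the line, with differences of -0.39 for Ntsr2 (unadjusted p = 0.0622), -0.39 for F3 (unadjusted p = 0.113) and -0.18 for Fgfr3 (unadjusted p = 0.33).

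Of the 6 genes of secreted and calcium-binding proteins, 5 were lower in Alt than in Ref at an unadjusted p under 0.05, against 8.83% of all genes, and 3 were lower in Alt than in Ctr, against 10.3% of all genes. Both Alt libraries lay below both Ref libraries for all 6, as they did for 26.1% of all genes. Apoe, the lipid carrier of the brain, had 534, 414 and 549 CPM in Ctr, 905 and 524 CPM in Ref, and 163 and 406 CPM in Alt. The 2 Ref libraries of Apoe were far apart, as were the 2 Alt libraries, and its difference was -1.33 in Alt versus Ref (SE 0.36, edgeR adjusted p = 0.23) and -0.81 in Alt versus Ctr (SE 0.33, edgeR adjusted p = 0.207). Clu, the secreted chaperone clusterin, had 813, 723 and 711 CPM in Ctr, 991 and 867 CPM in Ref, and 362 and 683 CPM in Alt. The difference of Clu was -0.83 in Alt versus Ref (SE 0.25, edgeR adjusted p = 0.236) and -0.52 in Alt versus Ctr (SE 0.23, edgeR adjusted p = 0.231). Without Alt replicate 1 the Alt versus Ctr differences were -0.13 for Clu (unadjusted p = 0.428) and -0.30 for Apoe (unadjusted p = 0.252), and the Alt versus Ref differences were -0.43 for Clu (unadjusted p = 0.0246) and -0.80 for Apoe (unadjusted p = 0.00917).

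S100b, a calcium-binding protein released by astrocytes, had 80.6, 79.4 and 67.8 CPM in Ctr, 82.5 and 83.8 CPM in Ref, and 35.4 and 59.2 CPM in Alt, so that both Alt libraries lay below the other 5. Its difference was -0.81 in Alt versus Ref (SE 0.22, edgeR adjusted p = 0.233) and -0.68 in Alt versus Ctr (SE 0.21, edgeR adjusted p = 0.131). Without Alt replicate 1 the latter was -0.36 (unadjusted p = 0.0767). After the length correction S100b had an unadjusted p under 0.05 in neither of these comparisons. Htra1, a secreted serine protease, had 197, 197 and 206 CPM in Ctr, 265 and 287 CPM in Ref, and 159.5 and 239.9 CPM in Alt. The Ref libraries of Htra1 were the highest, with a difference of 0.46 in Ref versus Ctr (SE 0.17, edgeR adjusted p = 1) and -0.47 in Alt versus Ref (SE 0.19, edgeR adjusted p = 0.289). Mfge8, a bridging protein for phagocytosis, had 235, 219 and 202 CPM in Ctr, 272 and 232 CPM in Ref, and 135 and 222 CPM in Alt, with a difference of -0.50 in Alt versus Ref (SE 0.22, edgeR adjusted p = 0.31). Without Alt replicate 1 the Alt versus Ref differences were -0.19 for Htra1 (unadjusted p = 0.288) and -0.17 for Mfge8 (unadjusted p = 0.363). Agt, the angiotensin precursor, ranged from 1.56 to 5.66 CPM over the 7 libraries, and its difference of -1.04 in Alt versus Ref had a 95% interval of -2.29 to 0.21.

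The transcription regulators showed no comparison with an unadjusted p under 0.05. Sox9, a transcription factor found in nearly all adult astrocytes, stood at 38.6 to 43.9 CPM in Ctr, 35.0 and 36.1 CPM in Ref, and 30.5 and 41.5 CPM in Alt. It was the member whose 2 Ref libraries both lay below Ctr, with a difference of -0.22 and a 95% interval of -0.62 to 0.18. Id3 and Id4, inhibitors of helix-loop-helix factors, had differences of 0.11 and 0.25 in Ref versus Ctr, and Id3 stood at 5.07 CPM in Alt replicate 1 and 25.4 CPM in Alt replicate 2.

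With the groups scored in the order Ctr, Ref and Alt, 2 members had a positive and 3 a negative slope at an unadjusted p under 0.05, where 16.7% of all genes met this line, 8.85% positive and 7.89% negative. The 2 were Slc1a2 (0.43 per step, SE 0.11, edgeR adjusted p = 0.166) and Slc4a4 (0.28 per step, SE 0.094, edgeR adjusted p = 0.198). The 3 were Mt1 (-0.43, SE 0.17, edgeR adjusted p = 0.246), Mt3 (-0.56, SE 0.19, edgeR adjusted p = 0.196) and S100b (-0.31, SE 0.13, edgeR adjusted p = 0.265). Of these 5, both metallothioneins and S100b had Ref levels that overlapped or lay just above Ctr, so that their slopes rested on Alt.

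Calls by DESeq2, whose Wald test uses another estimate of the spread, were more numerous. At an adjusted p under 0.05 they took in 5 members in Alt versus Ctr (Slc1a2, Slc4a4, Mt1, Mt3 and S100b) against 6.36% of all genes. They took in 4 members in Alt versus Ref (Mt3, Aldoc, Clu and S100b) against 2.49% of all genes, 0 in Ref versus Ctr against 0.0348%, and 2 for the slope over groups (Slc1a2 and Mt3) against 3.45%. DESeq2 gave no adjusted p for 2 members in all of these but Alt versus Ctr. In edgeR without the low-count filter, which fits 26895 genes, the members with an adjusted p under 0.05 numbered 7 in Alt versus Ctr against 5.52% of the genes fitted, 10 in Alt versus Ref against 3.16%, 1 in Ref versus Ctr against 0.149%, and 4 for the slope against 4.22%.

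Gene length moved with the differences that involve Alt. Over all genes tested, those up to the median length of 4051 bases had a median difference of -0.26 in Alt versus Ctr and the longer ones 0.12. The 20 shorter astrocyte genes had a median of -0.39, with 7 lower and 0 higher at an unadjusted p under 0.05, where 16.1% of all shorter genes were lower. The 16 longer ones had a median of 0.10, with 2 higher and 0 lower, where 16.4% of all longer genes were higher. All 9 members counted in Alt versus Ctr therefore lay on the side that genes of their length took. In Ref versus Ctr the medians of the shorter and longer members were 0.31 and 0.25, against -0.0043 and 0.011 over all genes.

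Set against the 20 length classes of all genes tested, 34 of the 36 lay above the median of their own class in Ref versus Ctr and 25 above its upper quartile. In Alt versus Ref 30 lay below the class median and 15 below the lower quartile, with a median distance of -0.31. In Alt versus Ctr 15 lay above and 21 below, and 26 stood between the quartiles of their class. Of the 9 members counted in that comparison, Slc1a2 and Slc4a4 lay above the upper quartile. Mt1, Mt3, Cldn10, Apoe and Clu lay below the lower quartile, and Aldoc and S100b stood between the quartiles. The fits were then repeated with length-dependent offsets for each library. These offsets also moved the groups as a whole. In Ref versus Ctr the medians of all shorter and longer genes went from -0.0043 and 0.011 to -0.14 and -0.067. In Alt versus Ref they came to 0.11 and 0.056. The refit is thus no measure of gene length alone. Of the members with an unadjusted p under 0.05, this refit left 5 of 7 in Ref versus Ctr (Glul, Aldoc, Cbs, Etnppl and Htra1), 9 of 16 in Alt versus Ref (Mt3, Cldn10, Aldoc, Etnppl, Fgfr3, Ntsr2, Apoe, Clu and Mfge8) and 6 of 9 in Alt versus Ctr (Slc1a2, Mt1, Mt3, Cldn10, Apoe and Clu).

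**Figure D4:**
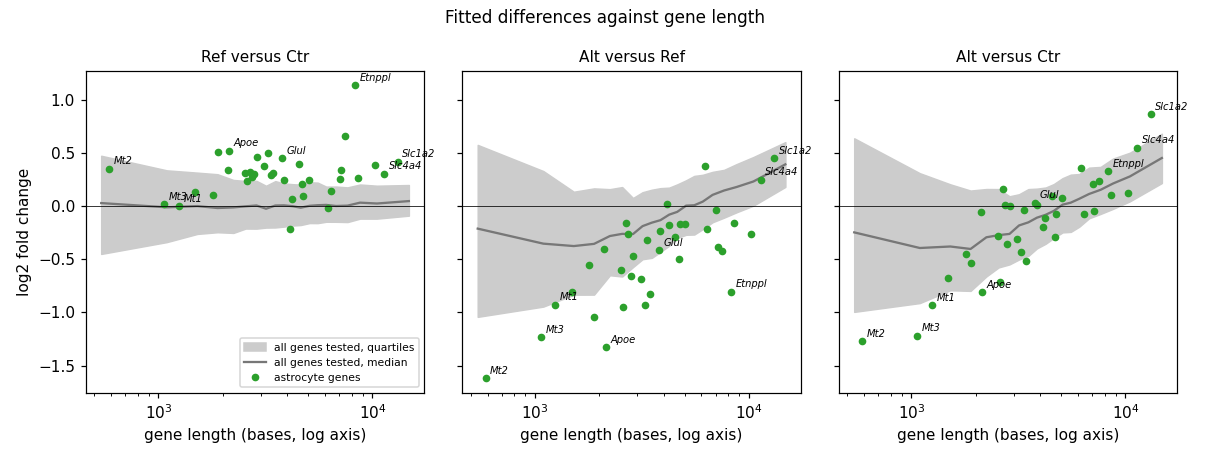
Log2 fold change (y axis) against annotated gene length in bases (x axis, log scale) is drawn for the 36 astrocyte genes (points) and for all genes tested (line, median of each length class, and band, its quartiles) in 3 panels. Most points lie above the band in Ref versus Ctr (25 of 36), 15 lie below it in Alt versus Ref, and 26 lie within it in Alt versus Ctr.

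Leaving out Alt replicate 1 left 7 of the 7 in Ref versus Ctr, 7 of the 16 in Alt versus Ref (Mt2, Mt3, Cldn10, Aldoc, Apoe, Clu and S100b) and 2 of the 9 in Alt versus Ctr (Slc1a2 and Mt3). In that fit the remaining Alt library was assumed to vary like the other groups. The median of the members in Alt versus Ctr then changed from -0.066 to 0.082, and Mt2, with a difference of -2.65 that rests on 9 counts, had an unadjusted p of 0.00157.

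A further list of 30 astrocyte genes outside the 36 was measured beside them. At an unadjusted p under 0.05, 8 of the 30 were higher and 0 lower in Ref versus Ctr, 0 were higher and 11 lower in Alt versus Ref, and 3 were higher and 4 lower in Alt versus Ctr. Their shares were 26.7% higher in Ref versus Ctr against 2.19% of all genes and 36.7% lower in Alt versus Ref against 8.83%. In Alt versus Ctr, 10% were higher and 13.3% lower, close to the 9.45% and 10.3% of all genes. Their medians were 0.30, -0.32 and 0.07, the last of them opposite in sign to the median of -0.066 over the 36. In Ref versus Ctr the smallest p-values were those of Itih3 (0.71), Acsbg1 (0.51) and Slc38a3 (0.56), which encode a hyaluronan-binding protein, an acyl-CoA synthetase and a glutamine transporter. In Alt versus Ref they were those of Acsbg1 (-0.69), Slc25a18 (-1.05), a mitochondrial glutamate carrier, and Pla2g7 (-0.84), a secreted phospholipase. In Alt versus Ctr they were those of Grin2c (0.62), an NMDA receptor subunit, Fabp7 (-1.47), a fatty acid binding protein, and Slc25a18 (-0.80).

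Markers of some other cell types differed between the groups as well. Of 10 oligodendrocyte markers, all of them above 0 counts in every library, 8 were higher in Ref than in Ctr and 8 lower in Alt than in Ref at an unadjusted p under 0.05, against 2.19% and 8.83% of all genes. One of them, Mbp (myelin basic protein), was the gene that passed the adjusted threshold in Alt versus Ref (-1.29, SE 0.16, edgeR adjusted p = 0.0481). Their summed level was 2425 to 3431 CPM in Ctr, 4101 and 5101 CPM in Ref, and 2374 and 2904 CPM in Alt, and 2 of the 10 were lower in Alt than in Ctr, against 10.3% of all genes. The part of a different tissue composition in the astrocyte gene levels was not tested. For 10 microglia markers, summed at 461 to 523 CPM in Ctr, 538 and 545 CPM in Ref, and 441 and 489 CPM in Alt, 0 met this line in Ref versus Ctr and 4 were lower in Alt versus Ref, against 8.83% of all genes. Against Ctr, 3 of them were lower and 1 higher in Alt, beside 10.3% and 9.45% of all genes. For 10 neuron markers, summed at 9360 to 9869 CPM in Ctr, 9211 and 9923 CPM in Ref, and 10424 and 10612 CPM in Alt, 0 met it in Ref versus Ctr and 1 was higher in Alt versus Ref, against 6.71% of all genes, while 2 were higher and 1 lower in Alt versus Ctr, against 9.45% and 10.3%. Of 5 markers of oligodendrocyte precursors, summed at 259 to 344 CPM in Ctr, 391 and 412 CPM in Ref, and 324 and 371 CPM in Alt, 2 were higher in Ref versus Ctr, and so were 2 of 10 endothelial markers, summed at 513 to 603 CPM in Ctr, 655 and 737 CPM in Ref, and 632 and 756 CPM in Alt, against 2.19% of all genes. Higher in Alt than in Ctr were 2 of the 5 precursor and 2 of the 10 endothelial markers, against 9.45% of all genes. In Alt versus Ref 1 precursor marker and 1 endothelial marker were lower, against 8.83% of all genes, and 1 endothelial marker was higher, against 6.71%. Of 5 meningeal fibroblast markers, summed at 37.1 to 40.3 CPM in Ctr, 34.2 and 37.8 CPM in Ref, and 51.0 and 54.3 CPM in Alt, 1 was higher in Alt than in Ctr and than in Ref, against 9.45% and 6.71% of all genes. Of 5 erythroid markers, summed at 101 to 152 CPM in Ctr, 108 and 138 CPM in Ref, and 82.9 and 94.1 CPM in Alt, 1 was lower in Alt than in Ctr and than in Ref, against 10.3% and 8.83% of all genes. The 5 markers of the choroid plexus, a tissue that also expresses Clu, summed to 2.59 to 6.11 CPM in the 7 libraries, with 0 to 3 of them at 0 counts.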

How the data were processed

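RNA of the PFC was sequenced in 7 libraries from female mice (Ctr 3, Ref 2, Alt 2) after poly(A) selection, in strand-marked libraries. The deposited table held raw read counts per gene, which the authors produced, per the submitters' processing notes, with STAR and featureCounts. The deposited TPM and FPKM values are length-scaled by the authors, TPM served here for levels within Ctr, and FPKM was not used. The notes name the human build hg19 while the gene identifiers are mouse, so no coordinates of the table are printed. The strand setting of the counting is not given in the sources used here.

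Counts were filtered (filterByExpr), TMM-scaled and fitted with edgeR 4.0.16 (R 4.3.3) as group means over all 7 libraries, with quasi-likelihood tests and Benjamini-Hochberg adjustment over 17254 genes. The slope scored Ctr, Ref and Alt as 0, 1 and 2. Alternatives were DESeq2 1.42.0, other size factors, no filter, gene length offsets (loess, span 0.3), a replicate block and each library left out. The edgeR, DESeq2 and gene length fits were tried on simulated counts, for Alt versus Ctr only and with the same spread for every gene and library. The measured Alt libraries differed more from each other than any other replicate pair. That check thus covers the procedures and not these results. Samples were grouped by their labels. Genes were given full values where their unadjusted p was under 0.05 in a comparison, together with the metallothioneins, Gfap, Aqp4, Aldh1l1, Slc1a2 and Slc1a3, and genes of other lists were named as the 3 with the smallest p. The members and lists were chosen with earlier results of these data known. Of the 36 members, 33 had a RefSeq promoter window.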

Additional observations from a re-analysis of the deposited data

How the results depend on the processing

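These results rest on 2 or 3 libraries per group, and those of Mt2, Cxcl10, Aspg and Slc39a2 also on few counts. Of 481 refits of single genes with an unadjusted p under 0.05, 362 kept it, 119 did not and 0 changed sign. The number of members past that line was 9 in Alt versus Ctr and ranged from 3 to 15 with a library left out, 3 without Alt replicate 1 (8.14% of all genes), 5 without Ctr replicate 1 (11.8%) and 15 without Alt replicate 2 (33.2%). It was 16 in Alt versus Ref and ranged from 7 (without Alt replicate 1, 6.76% of all genes) to 24 (without Alt replicate 2, 28.9%). It was 7 in Ref versus Ctr and ranged from 4 (without Ctr replicate 1, Ctr replicate 3 or Ref replicate 2, with 2.06%, 3.74% and 1.25% of all genes) to 13 (without Alt replicate 1 or 2, with 5.51% and 5.52%). It was 5 for the slope over groups, from 3 (without Ctr replicate 1, 9.73% of all genes) to 7 (without Ref replicate 1, 17.9%). The members' median ranged from -0.29 to 0.082 in Alt versus Ctr, so that Alt replicate 1 decided its sign, from -0.59 to -0.21 in Alt versus Ref, from 0.24 to 0.32 in Ref versus Ctr and from -0.054 to 0.078 for the slope.

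With the gene length correction, 10 members passed in Alt versus Ref (13.1% of all genes) and 3 for the slope (14.2%), and the Alt versus Ref median was -0.23, while the median of all genes rose from -0.037 to 0.077. Relative to all genes the medians were -0.37 without and -0.31 with the correction in Alt versus Ref, and 0.30 and 0.27 in Ref versus Ctr. With this correction and without Alt replicate 1, an alternative chosen after seeing the data, 2 members passed in Alt versus Ctr (7.18% of all genes), 4 in Alt versus Ref (6.17%), 8 in Ref versus Ctr (8.6%) and 3 for the slope (7.17%), with medians of -0.16 in Alt versus Ref and 0.16 in Ref versus Ctr. Without the low-count filter 9 passed for the slope (16.2%). DESeq2 and its size factors kept each count within 1 of the value reported.

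Whether the replicate numbers pair the libraries could not be settled. Deviations from the group mean correlated at 0.106 and 0.13 between same-numbered Ctr and Ref libraries, -0.165 and -0.146 for Ctr with Alt, and -0.15 for Ref with Alt. With 2 libraries in Ref and in Alt, deviations within each of these groups mirror each other. The sign for other-numbered libraries is therefore fixed as the opposite. With the replicate number as a block, 5 members passed in Alt versus Ctr (12.6% of all genes), 3 in Ref versus Ctr (2.49%), 14 in Alt versus Ref (9.01%) and 4 for the slope (12.8%). With the Alt numbers crossed in that block, an alternative chosen after seeing the data, 12 (24.3%), 10 (7.52%), 20 (21%) and 6 (19.1%) passed.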

Other observations

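A list of pan-reactive astrocyte genes other than Gfap and Vim was also measured. Of its 11 genes, 9 were tested, and 0 of them passed an unadjusted p of 0.05 in Ref versus Ctr in edgeR. In Alt versus Ctr 1 was higher and 2 were lower, against 9.45% and 10.3% of all genes, and the median was 0.18. In Alt versus Ref 0 were higher and 2 lower, against 6.71% and 8.83%. The smallest p-values in Alt versus Ctr were those of Cxcl10, Aspg and Cp. Cxcl10, a chemokine, and Aspg, an asparaginase, were lower in Alt but rest on 0 and 5 counts and on 3 and 10 counts in the 2 Alt libraries. Cp, the copper carrier ceruloplasmin, stood at 30.3 and 46.2 CPM in Alt against 24.0 to 25.9 CPM in Ctr.

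Among 24 genes of zinc transport and metal sensing, 22 were tested. In Ref versus Ctr 0 passed an unadjusted p of 0.05 in edgeR, and in Alt versus Ctr 3 were higher and 2 lower, together 22.7%, close to the 19.8% of all genes, with a median of 0.020. In Alt versus Ref 4 were higher and 2 lower, or 18.2% and 9.09%, against 6.71% and 8.83% of all genes. Mtf1, the zinc sensor that drives metallothionein transcription, stood at 27.1 to 30.1 CPM in Ctr, 29.9 and 35.6 CPM in Ref, and 45.0 and 42.8 CPM in Alt, a difference of 0.62 in Alt versus Ctr (SE 0.17, edgeR adjusted p = 0.124). Both Alt libraries of Mtf1 lay above all Ctr libraries, as they did for 16.8% of all genes. They also lay above both Ref libraries, as they did for 21.6%. Whether Mtf1 bears on the levels of Mt1, Mt2 and Mt3 was not tested. Mtf1 is annotated with 8907 bases, and Slc39a10 (0.65) and Slc30a7 (0.67), zinc transporters of 6095 and 11116 bases, were the other 2 higher genes. The 2 lower genes, named after their values were seen, were Slc39a13 (-0.78, 4869 bases) and Slc39a2 (-2.34, 3447 bases), the latter at 0 and 17 counts in the 2 Alt libraries. Of these 5, Slc39a13 was lower although longer than the median of 4051 bases. The length classes around its 4869 bases had medians of -0.047 and 0.012 in Alt versus Ctr.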
